A study of Sus scrofa with 6 samples.

Results

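The genes described are Aurora kinases, the other subunits of the chromosomal passenger complex, the Aurora A activator TPX2 and the Polo-like kinase PLK1, in pig (Sus scrofa) oocytes with and without the insecticide malathion. Members were chosen by gene symbol and not by a cut on measured values, but with earlier results of these data known. Of the 8 genes named, 6 were matched to an Ensembl identifier in the name table: AURKB, INCENP, BIRC5, CDCA8, TPX2 and PLK1. AURKA and AURKC were matched to none and are not analysed here. The 6 genes were among 25880 gene rows of each count file, and all 6 were among the 10678 genes kept by the filter on low counts.

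The study asked how malathion affects the mRNA stored in oocytes. It holds 6 RNA-seq libraries of MII oocytes, arrested in the second metaphase of meiosis, 3 of control oocytes and 3 of oocytes treated with malathion at 1 mM, diluted from a DMSO stock into the in vitro maturation medium. Ovaries came from a slaughterhouse, oocytes with their cumulus cells came from follicles of 3 to 6 mm, and polyadenylated RNA was amplified by a modified Smart-seq2 method, which copies whole transcripts from very small inputs. The labels give neither the strain or age of the pigs, nor whether control medium held DMSO, nor how many oocytes went into a library, nor whether replicates came from separate cultures. The p-values therefore measure the spread between these libraries, which may be technical.

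Aurora kinases are serine/threonine kinases that phosphorylate spindle and kinetochore proteins during cell division. Aurora A works at spindle poles, where TPX2 binds and activates it. Aurora B (AURKB), or its close relative Aurora C in germ cells, is the catalytic subunit of the passenger complex, in which INCENP is the scaffold and activator, and survivin (BIRC5) and borealin (CDCA8) bring the complex to centromeres. The complex releases wrong attachments of microtubules to kinetochores, and PLK1 acts in spindle assembly, kinetochore attachment and cytokinesis. In the oocyte, proteins for these steps are made in part from maternal mRNA stored during growth.

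Replicate 3 of both groups stood apart from the other libraries. Values of a group are given in the order of replicates 1, 2 and 3 throughout, and CPM are counts scaled to the summed gene counts of a library. Gene counts ranged from 25816040 to 42312341 per library, and 8344 to 14707 genes had at least 1 count, with the fewest in control replicate 3 and malathion replicate 3. Markers of the oocyte (12 of 15 with an identifier) summed to 77342, 30693 and 4285 CPM in the control libraries and to 84165, 60876 and 2967 CPM in the malathion libraries. Markers of cumulus and granulosa cells (13 of 15) summed to 425 to 728 CPM in replicates 1 and 2 of both groups, and to 37.0 and 66.2 CPM in the replicate 3 libraries. Most of it in replicates 1 and 2 was VCAN (286 to 424 CPM) and KITLG (133 to 244 CPM), and CYP11A1, INHBA and STAR were highest in malathion replicate 2, CYP11A1 at 81.6 CPM and INHBA at 17.4 CPM. AMH was at 0 in each library, and FSHR and PTX3 stayed at or below 0.540 CPM. Markers of theca, stroma, blood and endothelium (8 of 10) stayed at or below 22.0 CPM in sum. Markers of proliferating cells with an identifier (3 of 6) summed to 158 to 407 CPM in replicates 1 and 2, to 1598 CPM in control replicate 3, nearly all of it MCM2, and to 2.36 CPM in malathion replicate 3. The part of other cells in the levels of the 6 genes was not tested, and in bulk samples fewer cells of a type and less RNA per cell cannot be told apart.

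All 6 genes were readily detected in replicates 1 and 2 of both groups, and none was called as changed by malathion. The levels of control replicate 1 and malathion replicates 1 and 2 lay close together. Control replicate 2 held more BIRC5 and less AURKB and TPX2 than these. Both replicate 3 libraries were nearly empty of the group, with 1 exception, TPX2 in control replicate 3.

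AURKB (ENSSSCG00000028924), the catalytic subunit, stood at 535, 343 and 4.14 CPM in the control libraries and at 541, 581 and 3.47 CPM in the malathion libraries. The groups overlapped, and the replicate 3 library was the lowest in each. These values rest on 9291 to 16129 counts in replicates 1 and 2, and on 122 and 147 counts in the replicate 3 libraries. The group means were 294 ± 269 CPM in control and 375 ± 323 CPM in malathion (SD, n = 3 each), a difference far smaller than the spread within either group.

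INCENP (ENSSSCG00000013066), the scaffold, stood at 5.65, 4.06 and 0.0679 CPM in the control libraries and at 5.38, 4.79 and 0 CPM in the malathion libraries. In counts these were 157, 110 and 2 in control, and 139, 133 and 0 in malathion. The 2 counts of control replicate 3 have an exact Poisson 95% interval of 0.00822 to 0.245 CPM, and the 0 counts of malathion replicate 3 one of 0 to 0.0872 CPM. Taking 3 counts as the limit that 0 counts allow, as for all folds below, malathion replicate 3 allows up to 0.0709 CPM. Counting error is all that such intervals and floors cover, since amplified copies of 1 molecule cannot be told apart here.

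BIRC5 (ENSSSCG00000040486), survivin, stood at 82.3, 289 and 0.679 CPM in the control libraries and at 86.1, 85.3 and 0.355 CPM in the malathion libraries. Control replicate 2 stood alone, at 3.35 times the highest of the other 5 libraries. The group means were 124 ± 148 CPM in control and 57.3 ± 49.3 CPM in malathion (SD, n = 3 each), so the higher control mean rested on that library. Of 6126 tested genes at 5 CPM or more in control replicate 1 and malathion replicates 1 and 2, 50.9% were higher in control replicate 2 than in each of these libraries, and 7.36% were at least as far above them as BIRC5.

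CDCA8 (ENSSSCG00000032909), borealin, stood at 82.3, 109 and 0.848 CPM in the control libraries and at 78.2, 81.0 and 0.355 CPM in the malathion libraries. It followed BIRC5 closely in 5 libraries and parted from it in control replicate 2. The ratio of BIRC5 to CDCA8 counts was 1.00 in control replicate 1, 1.10 in malathion replicate 1 and 1.05 in malathion replicate 2, and 2.64 in control replicate 2 (exact 95% interval 2.53 to 2.75). In the replicate 3 libraries it was 0.800 (interval 0.421 to 1.50) and 1.00 (interval 0.456 to 2.20), on 15 to 25 counts per gene. RefSeq's Sscrofa11.1 annotation has EPHA10 overlapping CDCA8, ERN2 overlapping PLK1, and tRNA genes overlapping AURKB, whose counts are not given here. EPHA10 had 7 counts in control replicate 2 and 0 elsewhere, and ERN2 had 0 in each library.

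TPX2 (ENSSSCG00000007235), the activator of Aurora A and an organiser of spindle microtubules, stood at 953, 456 and 322 CPM in the control libraries and at 821, 814 and 5.62 CPM in the malathion libraries. Its 9484 counts in control replicate 3 set it apart from the other 5 genes, which had 2 to 122 counts there. In malathion replicate 3 it had 238 counts. The groups overlapped, with means of 577 ± 333 CPM without and 547 ± 469 CPM with malathion (SD, n = 3 each).

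PLK1 (ENSSSCG00000026748) stood at 25.1, 35.6 and 0.136 CPM in the control libraries and at 23.3, 29.0 and 0.0945 CPM in the malathion libraries. Replicate 2 was the highest library of each group. The values of the replicate 3 libraries rest on 4 counts each. Levels are not compared between genes here, because no transcript length was at hand.

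**Figure D1:**
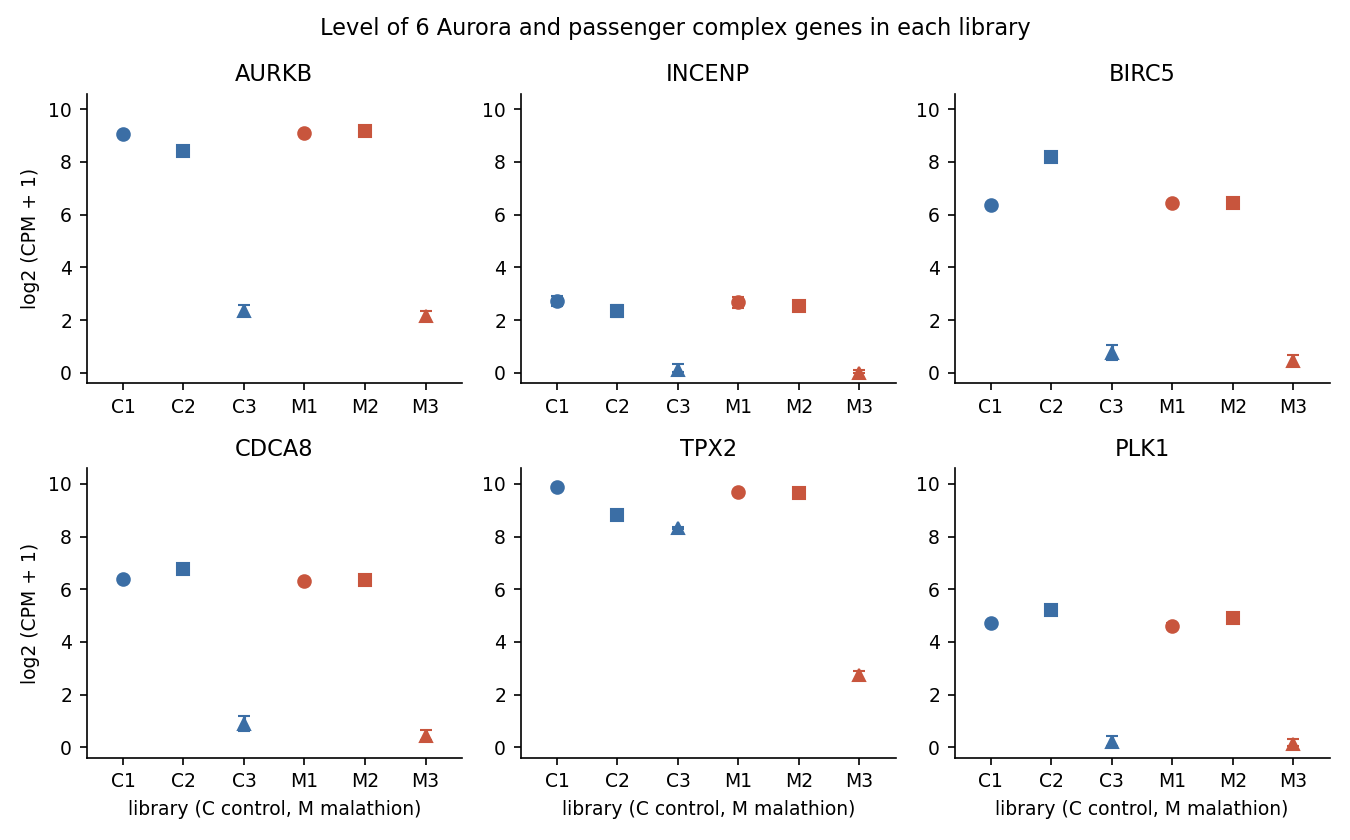
Level of each gene as log2 (CPM + 1) in control (C, blue) and malathion (M, red) libraries of replicates 1 (circle), 2 (square) and 3 (triangle), with the exact Poisson 95% interval where it is wider than the symbol. The replicate 3 triangles lie far below the other libraries of each gene, except TPX2 in control replicate 3 at 322 CPM.

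Against replicates 1 and 2 of the same group, AURKB was 106-fold lower in control replicate 3 and 162-fold lower in malathion replicate 3. BIRC5 was 273-fold and 242-fold lower, CDCA8 113-fold and 225-fold lower, and PLK1 224-fold and 276-fold lower. The PLK1 folds rest on 4 counts in each replicate 3 library. The exact Poisson 95% intervals of these counts were wide, 0.0370 to 0.348 CPM in control and 0.0258 to 0.242 CPM in malathion. The mean behind the 273-fold value, 186 CPM, was raised by control replicate 2, at 289 CPM against 82.3 CPM in control replicate 1. INCENP in control replicate 3 was at 1.40% of the mean of replicates 1 and 2, on 2 counts, and in malathion replicate 3 it was at least 71.7-fold lower, taking 3 counts as the floor. TPX2 was 145-fold lower in malathion replicate 3 but only 2.19-fold lower in control replicate 3.

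These drops were shared by much of the transcriptome. Of 6352 genes with a mean of at least 10 CPM in control replicates 1 and 2, 74.5% were more than 10-fold lower in control replicate 3 and 49.1% more than 50-fold lower. Of 5451 such genes in the malathion libraries, 70.4% and 42.2% were. In control replicate 3, 22.3% of the genes were at or below the relative level of BIRC5 and 37.8% at or below that of AURKB, against 88.3% for TPX2. In malathion replicate 3 this share was 15.98% for PLK1 and 25.1% for TPX2, the ends of the range for the 5 genes with counts. The summed oocyte markers were also lower in the replicate 3 libraries, at the values given above, but single markers differed. ZP2 was higher in malathion replicate 3 (2158 CPM) than in malathion replicates 1 and 2 (547 and 594 CPM). In control replicate 3 it was lower (23.9 CPM) than in control replicates 1 and 2 (554 and 145 CPM). GDF9 stood at 259 CPM in control replicate 3, against 393 and 2650 CPM in control replicates 1 and 2. The part of library quality in these levels was not tested.

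**Figure D2:**
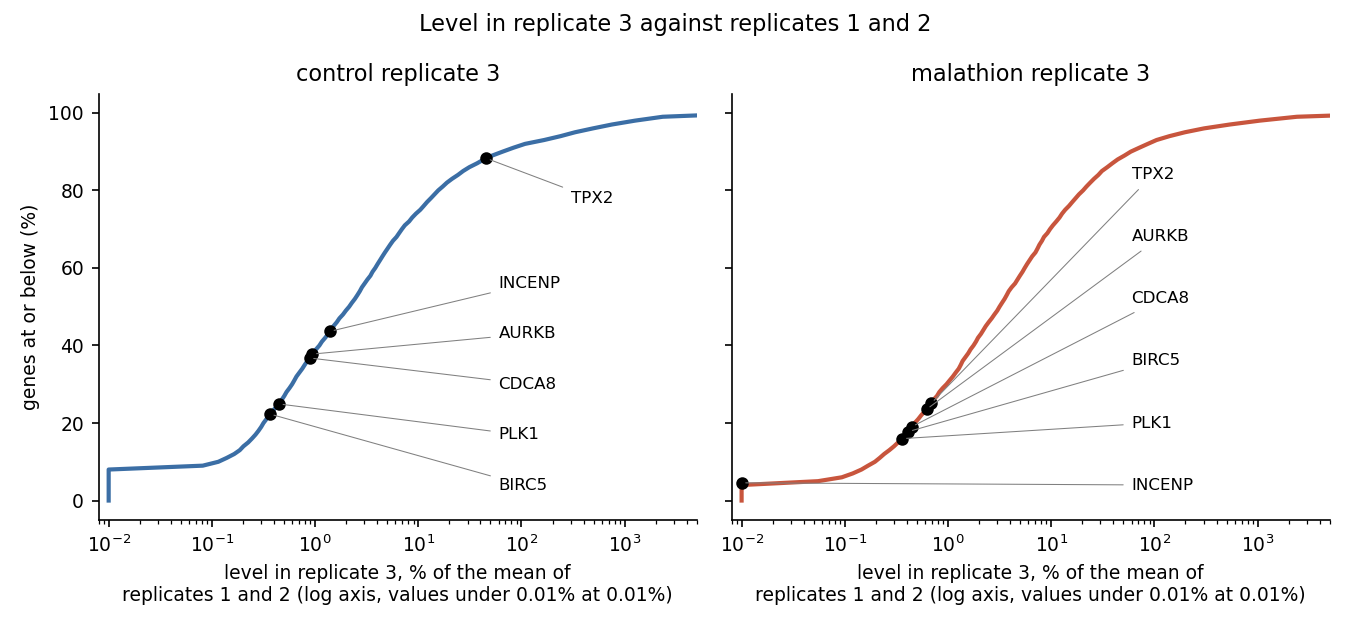
Share of genes (y axis, percent) at or below a given level in replicate 3, as a percentage of the mean of replicates 1 and 2 (x axis, log scale), for genes with a mean of at least 10 CPM there, in control (left) and malathion (right). Points mark the 6 genes, INCENP included although its mean was 4.85 and 5.09 CPM; TPX2 sits at 45.7% in control replicate 3 and at 0.688% in malathion replicate 3.

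Shares among the 4 measured genes of the passenger complex, which leave out AURKC, do not depend on how a library is scaled. AURKB held 75.8%, 46.0% and 72.2% of the summed counts of AURKB, INCENP, BIRC5 and CDCA8 in the control libraries and 76.1%, 77.2% and 83.1% in the malathion libraries. BIRC5 held 38.8% in control replicate 2 (Wilson 95% interval 38.1% to 39.4%) and 8.47% to 12.1% in the other 5 libraries. Although the replicate 3 libraries had 169 and 177 counts of the 4 genes, against 18360 to 20881 elsewhere, their split by gene was near that of replicates 1. The Wilson interval of the AURKB share was 65.0% to 78.4% in control replicate 3, which holds the value of control replicate 1, and 76.8% to 87.9% in malathion replicate 3, which lies just above the value of malathion replicate 1.

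**Figure D3:**
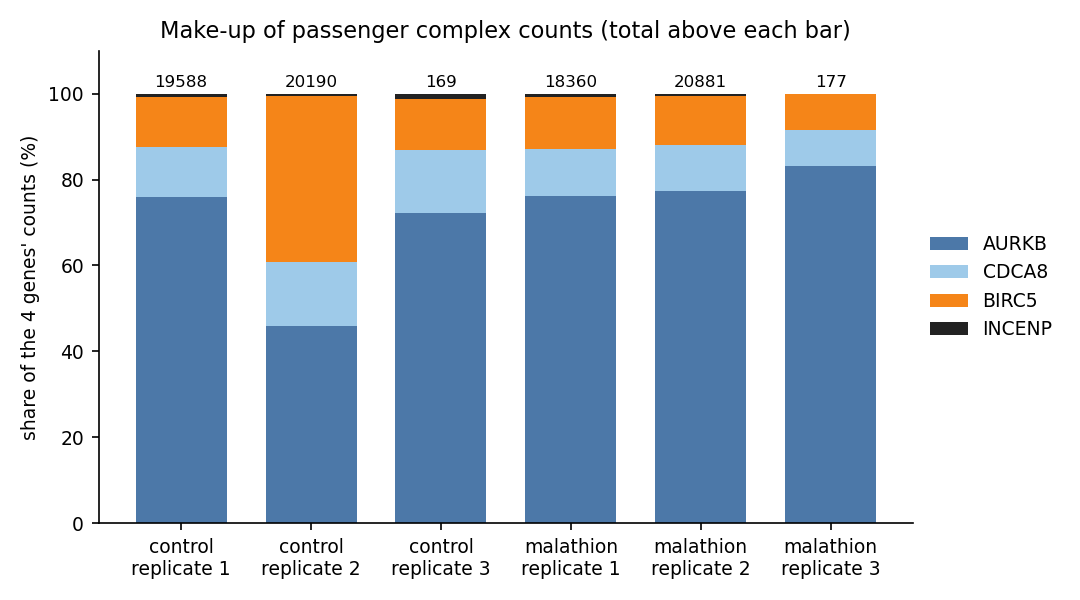
Share of the summed counts of AURKB, CDCA8, BIRC5 and INCENP (y axis, percent, counts not corrected for length) in each library, with the total above each bar. Control replicate 2 differs from the rest, with BIRC5 at 38.8% and AURKB at 46.0%.

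The share of INCENP among the counts of the 3 non-kinase subunits was 3.32%, 1.01% and 4.26% in the control libraries and 3.17%, 2.80% and 0% in the malathion libraries. The 0% stands for 0 of 30 counts. The means were 2.86 ± 1.67% and 1.99 ± 1.73% (SD, n = 3 each), and no difference was detected (exact permutation test, two-sided, p = 0.5, smallest possible p 0.1). It is 1 of 4 planned ratios, and the other 3 need AURKA or AURKC. Outside the complex, the ratio of TPX2 to AURKB counts was 1.33 to 1.78 in 5 libraries, counting malathion replicate 3 (1.62, exact 95% interval 1.31 to 2.00), and 77.7 in control replicate 3 (interval 65.0 to 93.7).

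Malathion against control was tested over the 3 and 3 libraries with edgeR's quasi-likelihood test on counts scaled to library totals. Of the 6 genes, 0 passed at an adjusted p of 0.05, as did 0 of all 10678 genes (0%), and 0 of the 6 had an unadjusted p under 0.05, against 110 genes (1.03%). DESeq2 and limma-voom also called 0 genes, with 227 and 3 at an unadjusted p under 0.05. DESeq2 gave a p-value to 9559 of the 10678 genes, the 6 genes described here among them. The log2 fold change (malathion minus control) was above 0 for AURKB and INCENP and below 0 for the other 4, where 33.7% of all tested genes were above and 66.3% below 0. The median over the 6 genes was −0.15 and over all tested genes −0.33. For 0 of the 6 genes did the control and malathion CPM part without overlap, against 0.749% of all genes.

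The log2 fold change was 0.35 ± 1.81 (SE) for AURKB, 0.06 ± 2.49 for INCENP, −1.11 ± 1.88 for BIRC5 and −0.27 ± 1.90 for CDCA8, with an adjusted p of 0.99998 for each. TPX2 had −0.08 ± 1.80 and PLK1 −0.22 ± 2.05, at the same adjusted p. The 95% interval of AURKB ran from −3.19 to 3.90 and that of BIRC5 from −4.81 to 2.58, so changes of several-fold in either direction were not detectable with these libraries. Scaling with TMM factors moved TPX2 to −1.99 ± 1.72 and the median of all genes to −0.08, and turned PLK1 to 0.02.

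Without both replicate 3 libraries the intervals were much narrower and 0 genes were called, with 260 at an unadjusted p under 0.05. AURKB stood at 0.36 ± 0.40 (95% interval −0.63 to 1.34), CDCA8 at −0.27 ± 0.42 (−1.30 to 0.77), PLK1 at −0.22 ± 0.50 (−1.45 to 1.02) and INCENP at 0.07 ± 0.71 (−1.67 to 1.81). TPX2 stood at 0.21 ± 0.47 (−0.93 to 1.36), now above 0. BIRC5 had the largest value of the 6, −1.11 ± 0.64 (−2.69 to 0.46, unadjusted p = 0.134, adjusted p = 0.939 with edgeR). With the replicate 3 libraries kept and only control replicate 2 left out, BIRC5 turned to 0.46. The median of all tested genes was 0.41 in that fit.

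**Figure D4:**
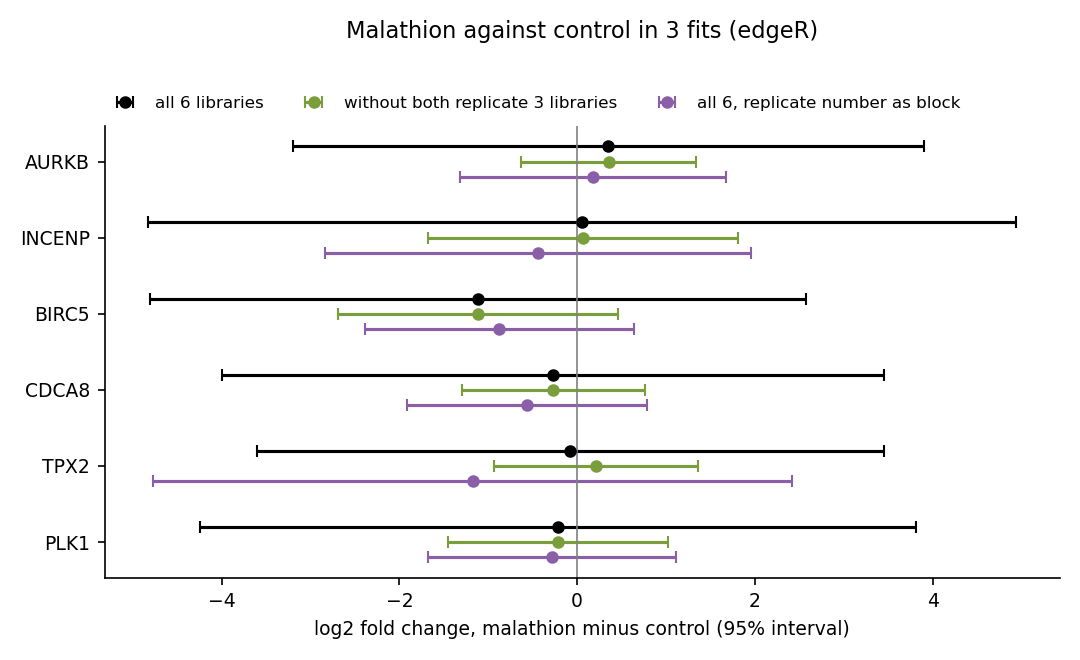
Log2 fold change of each gene, malathion minus control, with its 95% interval (x axis), from edgeR with all 6 libraries (black), without both replicate 3 libraries (green) and blocked by replicate number (purple). The intervals all span 0, and are widest with all 6 libraries and no block, apart from TPX2, whose blocked interval is slightly wider.

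The same-numbered libraries give 3 separate comparisons, although the labels do not explain the numbers and numbers 1 and 2 did not single out pairs. In replicates 1 the 2 libraries were close: the ratio of malathion to control CPM was 1.01 for AURKB, 0.953 for INCENP, 1.05 for BIRC5, 0.951 for CDCA8 and 0.927 for PLK1, with exact 95% counting intervals that hold 1 for these 5 genes. TPX2 was at 0.861 (interval 0.845 to 0.876). For the 5331 tested genes whose mean reached 10 CPM, the log2 ratio (of CPM plus 1) in replicates 1 had an SD of 0.370 and a median of −0.08, so TPX2, at −0.22, lay within the spread of all genes.

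In replicates 2 the ratio was 1.69 for AURKB and 1.79 for TPX2, 0.296 for BIRC5, 0.741 for CDCA8, 0.812 for PLK1 and 1.18 for INCENP. The log2 ratio had an SD of 1.27 over all genes there. The kinase and TPX2 were thus higher in malathion replicate 2 than in control replicate 2, and BIRC5 was lower. All lay within the middle 95% of all genes, −3.26 to 1.85 on the log2 scale. For these genes control replicate 2 was the library that stood apart from control replicate 1 and malathion replicates 1 and 2.

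In replicates 3 the ratio was 0.839 for AURKB (interval 0.656 to 1.08), 0.522 for BIRC5 (0.249 to 1.07) and 0.418 for CDCA8 (0.205 to 0.824), each on few counts. PLK1 had 4 counts in both, and no ratio is given for INCENP at 2 and 0 counts. TPX2 was 57.2-fold lower in malathion replicate 3 than in control replicate 3. The SD over all genes was 2.22 in this pair, and 195 of the 5331 genes (3.66%) were at least as low as TPX2. The direction of TPX2 in replicates 2 was thus the opposite of that in replicates 3.

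**Figure D5:**
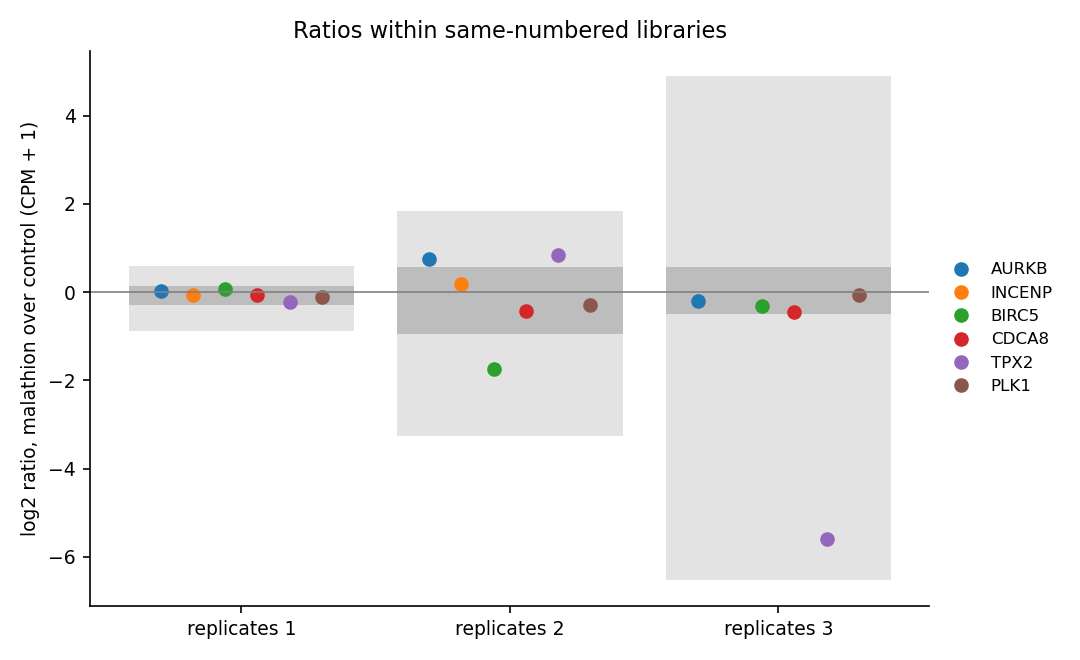
Log2 ratio of malathion to control (CPM + 1, y axis) for each gene (coloured points) in the libraries numbered 1, 2 and 3; dark and light grey boxes hold the middle 50% and 95% of 5331 genes. Points lie near 0 in replicates 1, between −1.75 and 0.83 in replicates 2, and TPX2 at −5.61 in replicates 3. Adding 1 CPM pulls the other points of replicates 3, at levels of 0.0945 to 4.14 CPM, toward 0, and INCENP has no point there.

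The genes most like each member over the 6 libraries were found by Pearson's r of log2 (CPM + 1), among named genes whose mean reached 10 CPM. For AURKB they were NEMF and BIN3, for INCENP CEP128 and PSMA7, for BIRC5 ZRANB2, for CDCA8 DPF2 and GNAI2, and for PLK1 HSPD1 and DDA1, each at an r above 0.999. Such values single out little, since all genes share the same 6 libraries and most were lower in the replicate 3 libraries. Between 51.0% and 58.7% of the 4724 or 4725 genes compared had an r of at least 0.95 with each of these 5 members. For TPX2 only 81 of 4724 genes (1.71%) did. Those nearest to it were TXNDC9 (r = 0.999), at 446 CPM in control replicate 3 and 8.82 CPM in malathion replicate 3, and KIAA0319L (r = 0.998), at 12.4 and 0.118 CPM.

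Among activators and pole partners of Aurora A, 7 of 10 listed genes had an identifier and were tested, with 4 higher and 3 lower after malathion, 0 called and a median log2 fold change of 0.06. BORA (ENSSSCG00000025120), which helps Aurora A to activate PLK1, stood at 598, 172 and 1485 CPM in the control libraries and at 570, 544 and 7.61 CPM in the malathion libraries. It was thus the highest in control replicate 3 and the lowest in malathion replicate 3. Its log2 fold change was −1.01 ± 1.82, −4.41 with TMM factors and 0.53 without both replicate 3 libraries. AJUBA, a LIM protein that binds Aurora A, had −2.45 ± 2.16, with 92.7 CPM in control replicate 2 and at most 9.33 CPM in the others.

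For the placement of the passenger complex, 7 of 7 genes had an identifier and 6 were tested, with 4 higher, 2 lower, 0 called and a median of 0.15. HASPIN (ENSSSCG00000031821), the kinase whose histone mark draws the complex to centromeres, had 23 and 72 counts in control replicates 1 and 2 and 0 in the other 4 libraries. It did not pass the filter on low counts, and without the filter its unadjusted p was 0.0361 and its adjusted p 0.99998 with edgeR. The 0 counts in malathion replicates 1 and 2 allow up to 0.116 and 0.108 CPM, against 0.828 and 2.66 CPM in control replicates 1 and 2. BUB1, the kinase of the other centromere mark, stood at 153, 23.1 and 3.05 CPM in the control libraries and at 132, 155 and 2.95 CPM in the malathion libraries (log2 fold change 0.70 ± 1.88, and 2.89 without control replicate 1 and 0.14 without control replicate 3). SGO2, the shugoshin that guards centromeric cohesion, had 0.12 ± 1.81, with 454 to 487 CPM in replicates 1 and 2 of both groups and 8.86 and 26.0 CPM in the replicate 3 libraries.

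Of kinetochore and chromatin substrates, 8 of 9 genes were tested, with 5 higher, 3 lower, 0 called and a median of 0.37. NDC80, which binds microtubules at the kinetochore, stood at 598, 203 and 471 CPM in the control libraries and at 570, 629 and 6799 CPM in the malathion libraries. Its log2 fold change of 2.65 ± 1.91 fell to 0.50 without malathion replicate 3. The centromeric histone gene CENPA, named after its values were seen, was high in both replicate 3 libraries, at 400 and 545 CPM, against 22.7 to 41.2 CPM elsewhere. Of the central spindle partners, 5 of 5 were tested, with 4 higher, 1 lower and a median of 0.21. RACGAP1, a subunit of centralspindlin, had −1.14 ± 1.92, with 190 CPM in control replicate 2 and at most 61.0 CPM elsewhere.

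Among opposing phosphatases 12 of 15 genes were tested, with 4 higher, 8 lower, 0 called and a median of −0.26. PPP2R5D, a regulatory subunit of PP2A, had −1.73 ± 2.64, with 9.37 CPM in control replicate 2 and at most 2.83 CPM elsewhere. The 2 other Polo-like kinases with an identifier, PLK2 and PLK3, were both lower, with a median of −1.13, but PLK3 only at −0.08 ± 2.09. PLK2 had −2.17 ± 2.72, with 6.97 CPM in control replicate 2 and at most 1.58 CPM elsewhere, and −0.36 without control replicate 2. For degradation of Aurora A and Polo, 2 of 3 genes were tested and both were lower (median −2.48). FZR1, which directs the anaphase-promoting complex to its substrates, had −3.03 ± 2.70 with 14.1 CPM in control replicate 2 and at most 2.20 CPM elsewhere. It stood at −1.21 without control replicate 2 and at −10.47 without malathion replicate 2, where both malathion libraries left had 0 counts and the fitted size is no bound. CDC20 had 0 counts in each library.

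Over the 7 lists, 42 genes were tested, with 21 higher and 21 lower, 0 called and a median log2 fold change of 0.02, against −0.33 for all tested genes. Of the 35 list genes with a mean of at least 10 CPM in replicates 1 and 2, 21 (60%) were more than 10-fold lower in replicate 3, in control and in malathion alike. Over all genes at that level the shares were 74.5% and 70.4%, as given above.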

How the data were processed

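The deposited files hold raw read counts per Ensembl gene, 1 file for each of 6 libraries, and the authors deposited them unnormalized. STAR 2.5.3a and HTSeq 0.9.1, with DESeq2 1.20.0, are named per the submitters' processing notes, without their roles. Genome build, annotation and strand setting are not given in the sources used here, so no coordinates are printed. The 5 HTSeq rows of reads given to no gene held 36.7% to 42.6% of a file, reads in overlapping genes among them (1.91% to 4.08%), and stayed out of totals and tests. A name table gave a symbol to 14857 of 25880 genes. In these libraries 3 counts are 0.0709 to 0.116 CPM.

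CPM are counts over the sum of gene rows. The test was edgeR 4.0.16 (R 4.3.3), quasi-likelihood F, two-sided, with library totals as scaling and filterByExpr (minimum count 10, minimum total count 15), Benjamini-Hochberg adjusted over 10678 genes at 0.05. The biological coefficient of variation was 1.56, and standard errors come from the F statistic. Library totals were used rather than TMM factors (0.138 to 3.57) so that fold changes and CPM share a scale. Alternatives were TMM, DESeq2 size factors, no filter, DESeq2 1.42.0, limma-voom (limma 3.58.1), a replicate block, leaving out each library, and leaving out both replicate 3 libraries. The scripts were tested on simulated data with the same mean profile in all libraries and far less spread than here. That test checks the code and not what change these libraries could show. Permutation tests and intervals used scipy 1.17.1. No library duplicated another (chi-square per degree of freedom at least 61.8).

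Same-numbered libraries deviated together from their group means across genes (r = 0.588, 0.382 and 0.652 for replicates 1, 2 and 3). The main test did not pair libraries. As pairs, the numbers served only for the replicate block and for the ratios within same-numbered libraries. Numbers 1 and 2 do not single out pairs, since control replicate 1 had r = 0.556 with malathion replicate 2 and control replicate 2 had 0.290 with malathion replicate 1. The labels do not explain the numbers. Members, lists and tests were chosen with earlier results of these data known. The genes named were the 6 members, the list member with the smallest p of each of 7 pathway lists, BORA, HASPIN, BUB1 and SGO2, and the 2 genes most like each member, 1 of which is not reported here. CENPA, CDC20, PLK3, EPHA10, ERN2 and the markers named singly were named after their values were seen.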

Additional observations from a re-analysis of the deposited data

How the results depend on the processing

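Under each of 13 alternatives 0 genes, 0 of the 6 members and 0 pathway list genes were called. DESeq2 gave a p-value to 9559 of 10678 genes. BORA, AJUBA and NDC80 had no adjusted p there and so could not be called. Of 78 alternative values of the members, 61 kept their direction, 17 turned and 0 changed their call. With the replicate number as a block the log2 fold change was −0.44 for INCENP, against 0.06, and −1.18 for TPX2, −0.87 for BIRC5 and 0.18 for AURKB, with 0 genes called and 136 at an unadjusted p under 0.05; the block changed no other call. TMM factors turned PLK1 to 0.0203 and limma-voom turned INCENP to −0.81. Without both replicate 3 libraries TPX2 turned to 0.21 and BORA to 0.53. Leaving out 1 library gave −0.23 to 1.11 for AURKB, −0.52 to 0.72 for INCENP, −1.70 to 0.46 for BIRC5, −0.85 to 0.36 for CDCA8, −0.49 to 0.50 for TPX2 and −0.80 to 0.47 for PLK1. It gave −0.45 to 0.67 for SGO2, −3.03 to 0.72 for AJUBA, −1.73 to 0.45 for RACGAP1, −4.16 to 0.65 for PPP2R5D, −10.47 to −1.21 for FZR1, −2.76 to −0.36 for PLK2, 0.14 to 2.89 for BUB1, 0.50 to 3.13 for NDC80 and −1.48 to −0.0436 for BORA. TMM factors, DESeq2 size factors and limma-voom gave −4.41, −4.64 and −2.15 for BORA. BIRC5, CDCA8, PLK1, AJUBA, RACGAP1 and PPP2R5D turned without control replicate 2 (to 0.46, 0.36, 0.47, 0.72, 0.45 and 0.65). The transcriptome-wide median turned too in that fit, to 0.41, against −0.33 in the main fit. This median was −0.28 without control replicate 1 and −0.83 without control replicate 3. Leaving out malathion replicate 1, 2 or 3 put it at −0.59, −0.85 and 0.11. All 6 members were below 0 in the fits with medians of −0.83, −0.59 and −0.85. How far single genes departed from these medians was not tested. The difference in the INCENP share was −0.87 percentage points, −1.80 to 0.12 when leaving out 1 library, turning without malathion replicate 3, and 0.82 without both replicate 3 libraries. The cause of these turns was not tested. Counts of 0 to 25 limit INCENP, BIRC5, CDCA8 and PLK1 in the replicate 3 libraries, and the INCENP share per length was not run.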

Other observations

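In the replicate 3 libraries AURKB, BIRC5, CDCA8, PLK1 and, in malathion, TPX2 held 0.362% to 0.944% of their mean level in replicates 1 and 2. This share was 0.944%, 0.366%, 0.885% and 0.447% for AURKB, BIRC5, CDCA8 and PLK1 in control replicate 3. There INCENP, on 2 counts, had 1.40% and TPX2 had 45.7%. In malathion replicate 3 the share was 0.619%, 0.414%, 0.445%, 0.362% and 0.688% for AURKB, BIRC5, CDCA8, PLK1 and TPX2, and INCENP had 0 counts. Low shares were common among all genes. The median over genes with a mean of at least 10 CPM was 2.14% in control and 3.16% in malathion. Of these genes, 49.1% and 42.2% were more than 50-fold lower. The replication gene MCM2 was, like BORA, at its highest in control replicate 3 (1598 CPM) and at its lowest in malathion replicate 3 (1.87 CPM), against 34.5 to 92.3 CPM elsewhere.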
